A study of Rattus norvegicus with 68 samples.

Results

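The chemokine genes Cxcl9, Cxcl10 and Cxcl11, their shared receptor gene Cxcr3 and the interferon gene Ifng were followed in nasal epithelial cells of rats that had breathed formaldehyde. They are 5 of the 14217 genes that the array measured with a probe set naming a single gene, and they were chosen as an interferon-induced ligand and receptor set, each taken at its probe set of highest mean signal. All 5 were present on the array. Male F344/CrlBR rats, 8 weeks old, were exposed by whole-body inhalation to 0.7, 2, 6, 10 or 15 ppm formaldehyde for 5 d, 4 w or 13 w, for 6 h on each of 5 days of the week, or to 0 ppm for 5 d or 13 w. Each of the 17 groups held 4 rats with 1 Rat230_2 array each, and the 68 arrays are described one by one because rats of a group differed. At 4 w the samples hold no 0 ppm group, so the 0.7 ppm rats served as the comparison there. Cells were freed by protease from the lateral meatus and nasoturbinate of Level II of the nose after the maxilloturbinate and the olfactory epithelium had been set aside.

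The products of Cxcl9, Cxcl10 and Cxcl11 are small secreted proteins that attract activated T cells and natural killer (NK) cells through CXCR3, the receptor these cells carry. Interferon-gamma, the product of Ifng, is made mainly by T and NK cells and induces all 3 ligand genes. Type I interferons act on Cxcl10 and Cxcl11 as well, and NF-kB also acts on ligand genes of this set. In airway epithelium the ligands are known chiefly from viral infection and allergic or toxic inflammation.

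Signals are log2 values, so a difference of 1 is a doubling of signal, and a group mean under 6 lay in the low part of the scale, where differences are compressed and no fold change is given. Array medians ran from 6.82 to 6.96, and arrays of the same group correlated at r of 0.970 to 0.996 over genes. All 12 epithelial markers on the array averaged at least 6, as did all 6 olfactory neuron and all 8 fibroblast markers, among them Omp at 12.3 and Col1a1 at 12.3, so the isolated cells were not purely epithelial although olfactory epithelium had been discarded. Of 24 T and NK cell markers, 11 averaged at least 6. In RNA of mixed cells, more or fewer cells of a type and more or less RNA per cell cannot be told apart.

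In the rat genome (RefSeq, GRCr8) the 3 ligand genes stand side by side on chromosome 14 within 38.4 kb. Cxcl11 spans chr14:15973728-15976503, Cxcl10 spans chr14:15989066-15991263 and Cxcl9 spans chr14:16007166-16012077, with gaps of 12.6 kb and 15.9 kb between them. Ifng lies at chr7:55789180-55793216 and Cxcr3 at chrX:70884293-70886944. The 250 bases before the RefSeq start of each ligand gene are shown because Cxcl10 and Cxcl11 followed each other closely across rats and Cxcl9 less so. They are read on the plus strand at chr14:15988816-15989065 for Cxcl10, chr14:15973478-15973727 for Cxcl11 and chr14:16006916-16007165 for Cxcl9. Capitals mark matches to the interferon-stimulated response element (ISRE) core, the gamma-activated site (GAS) or the NF-kB motif.
Cxcl10: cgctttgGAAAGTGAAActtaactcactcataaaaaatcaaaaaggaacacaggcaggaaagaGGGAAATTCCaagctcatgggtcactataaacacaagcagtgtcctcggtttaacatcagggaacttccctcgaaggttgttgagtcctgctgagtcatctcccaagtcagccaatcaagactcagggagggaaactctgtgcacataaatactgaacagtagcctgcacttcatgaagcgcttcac
Cxcl11: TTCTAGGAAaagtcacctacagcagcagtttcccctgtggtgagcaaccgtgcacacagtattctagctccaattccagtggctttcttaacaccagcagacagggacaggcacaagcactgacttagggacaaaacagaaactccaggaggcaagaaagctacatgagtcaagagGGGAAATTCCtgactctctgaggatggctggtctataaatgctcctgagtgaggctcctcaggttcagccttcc
Cxcl9: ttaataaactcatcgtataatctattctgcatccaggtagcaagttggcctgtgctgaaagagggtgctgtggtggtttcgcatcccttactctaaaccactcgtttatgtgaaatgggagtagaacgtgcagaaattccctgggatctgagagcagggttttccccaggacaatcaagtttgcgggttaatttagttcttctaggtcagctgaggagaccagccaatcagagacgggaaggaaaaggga

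The ISRE core was searched as GAAA, any 2 bases and GAAA, the GAS as TTCNNNGAA and NF-kB by its consensus, on both strands of windows reaching from 250 bases before to 50 bases after a start. In the Cxcl10 window an ISRE core, GAAAGTGAAA, began at -243 from the start and an NF-kB match, GGGAAATTCC, at -187. In the Cxcl11 window a GAS match, TTCTAGGAA, began at -250 and the same NF-kB letters, GGGAAATTCC, at -74. The only match in the Cxcl9 window was a GAS, TTCTCTGAA, that began at 33 bases past the start and so lies outside the bases shown. No match overlapped another, and the Ifng and Cxcr3 windows held none, which says only that these letters are not in those windows. Among 33469 such windows of the rat genome, 3.92% held the ISRE core, 8.87% the GAS and 4.18% the NF-kB motif. A match describes the letters and does not show that a factor binds there, and a missing match does not show that none does.

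At 5 d all 5 genes were higher at 15 ppm than at 0 ppm, where 18.3% of all genes tested were called higher. Genes were called at a Benjamini-Hochberg adjusted p under 0.05 in limma, fitted over all arrays and genes. Cxcl11 signals were 12.00, 11.89, 11.78 and 11.61 in the 15 ppm rats, numbered 354, 356, 358 and 359, against 5.76, 5.83, 5.51 and 5.71 in the 0 ppm rats. All 4 exposed rats lay close together and far above every unexposed rat, with a log2 difference of 6.12 ± 0.51 (SE, adjusted p = 1.7e-14). Cxcl10 signals were 11.74, 11.44, 10.54 and 10.99 in the same 15 ppm rats, against 6.26, 5.84, 6.21 and 6.34 at 0 ppm. The groups again did not overlap, and the difference of 5.01 ± 0.54 (adjusted p = 4.9e-11) is 32.3-fold. Cxcl10 and Cxcl11 are the ligands that type I as well as type II interferon induces.

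Cxcl9, the ligand most dependent on interferon-gamma, was uneven at 15 ppm. Its signals were 6.38, 8.07, 5.56 and 5.77 in rats 354, 356, 358 and 359, against 4.88, 5.00, 4.93 and 4.85 in the 0 ppm rats. All 4 exposed rats lay above the unexposed ones, rat 356 by the widest margin, and the mean difference was 1.53 ± 0.26 (adjusted p = 4.1e-06). Without rat 356 the Cxcl9 difference was 0.99 ± 0.21 (adjusted p = 1.57e-04). The second Cxcl9 probe set on the array gave 1.64 ± 0.29 for the same comparison.

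The receptor and the cytokine shifted less on this scale, and in the same rat most. Cxcr3 signals were 7.32, 8.23, 6.71 and 7.21 at 15 ppm, against 6.57, 6.56, 6.54 and 6.68 at 0 ppm. Rat 358 lay just above the unexposed range and rat 356 far above it, and the difference of 0.78 ± 0.16 (adjusted p = 8.4e-05) is 1.72-fold. Without rat 356 it was 0.49 ± 0.14 (adjusted p = 0.00487), and in a fit of these 2 groups alone the full difference was not called (adjusted p = 0.0601). Ifng stayed in the low part of the scale, with signals of 4.18, 4.70, 3.89 and 3.99 at 15 ppm against 3.56, 3.76, 3.62 and 3.55 at 0 ppm. The groups did not overlap, and the difference was 0.57 ± 0.09 (adjusted p = 7.6e-07).

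**Figure D1:**
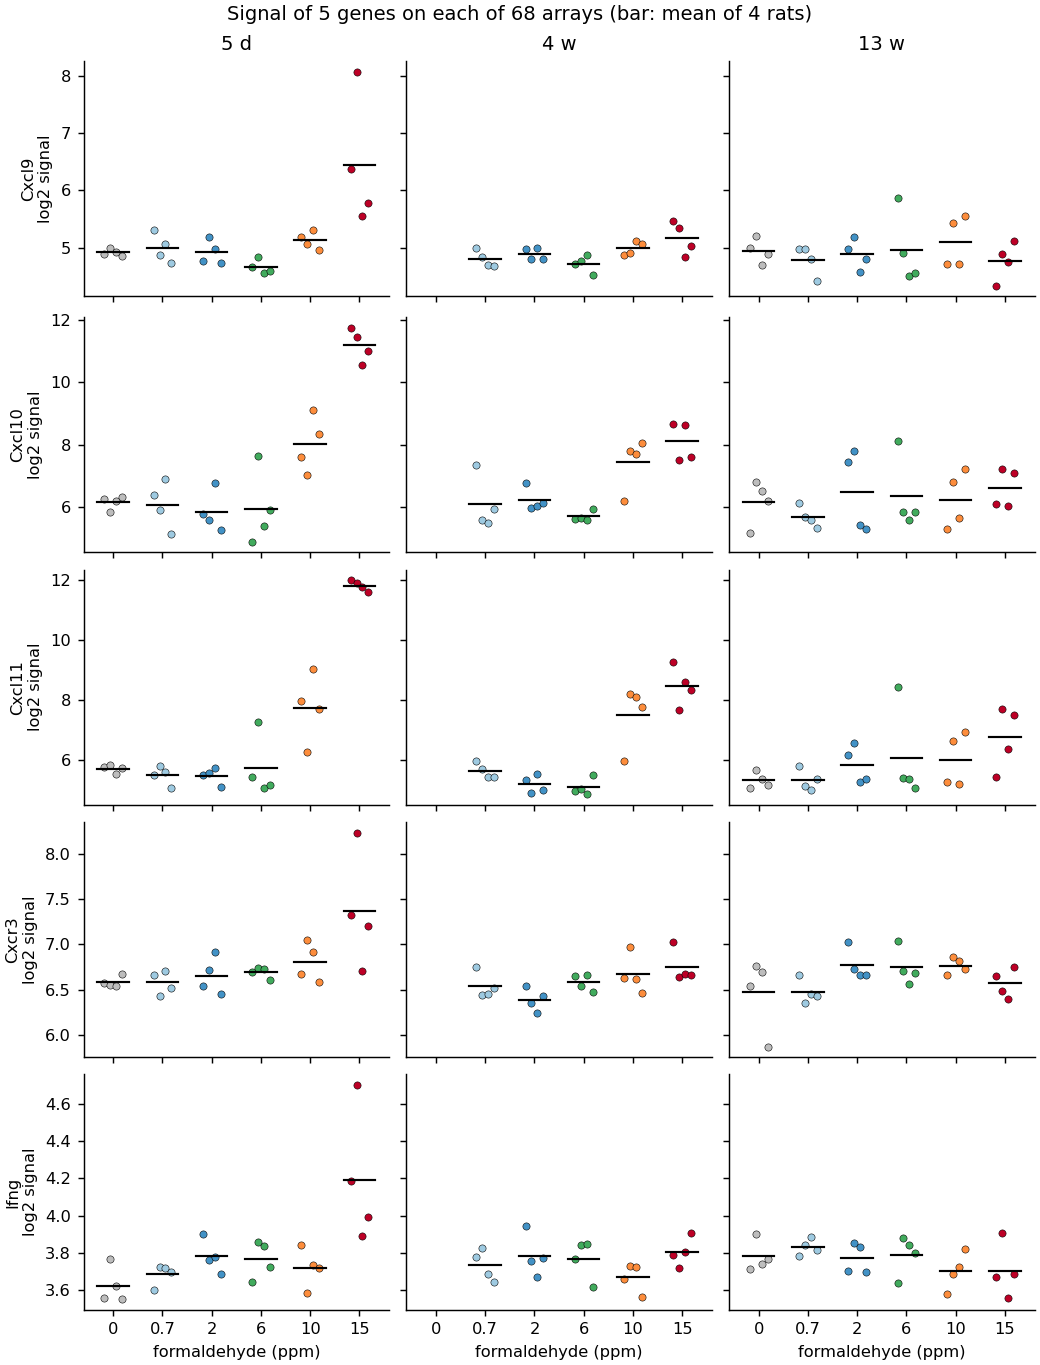
Log2 signal of Cxcl9, Cxcl10, Cxcl11, Cxcr3 and Ifng (rows, each with its own scale) against formaldehyde dose in ppm at 5 d, 4 w and 13 w (columns). Each point is 1 rat, 4 to a group, and each bar is the group mean. Cxcl10 and Cxcl11 stand highest at 15 ppm for 5 d, with all 4 rats above 10, and Cxcl9, Cxcr3 and Ifng stand highest in 1 of those rats.

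At 10 ppm for 5 d only Cxcl10 and Cxcl11 of the 5 genes were called higher, where 9.75% of all genes tested were. Cxcl10 signals were 7.61, 7.02, 9.10 and 8.36 in rats 324, 328, 329 and 330, all above the 0 ppm rats, with a difference of 1.86 ± 0.54 (adjusted p = 0.012), or 3.63-fold. Without rat 329 it was 1.5 ± 0.57 and no longer called (adjusted p = 0.0931). Cxcl11 signals were 7.95, 6.25, 9.02 and 7.70 in the same rats, also all above the 0 ppm rats, with a difference of 2.03 ± 0.51 (adjusted p = 0.00351). The 10 ppm differences of Cxcl9, Cxcr3 and Ifng were 0.21 ± 0.26, 0.22 ± 0.16 and 0.09 ± 0.09, and none was called.

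Between 15 and 10 ppm at 5 d the step was large for Cxcl10 and Cxcl11, and all 5 genes were called higher at 15 ppm against 7.18% of all genes. Cxcl11 was 17.0-fold higher at 15 than at 10 ppm (log2 difference 4.09 ± 0.51, adjusted p = 1.1e-08) and Cxcl10 was 8.90-fold higher (3.15 ± 0.54, adjusted p = 1.6e-05). For both ligands the lowest 15 ppm rat lay above the highest 10 ppm rat. Cxcl9 differed by 1.31 ± 0.26 (adjusted p = 2.3e-04) and Ifng by 0.47 ± 0.09 (adjusted p = 9.8e-05), and their rats did not overlap either. Without rat 356 these were 0.77 (adjusted p = 0.00888) and 0.30 (adjusted p = 0.00439). In a fit of these 2 groups alone neither was called (adjusted p = 0.183 and 0.165). Cxcr3 differed by 0.56 ± 0.16 (adjusted p = 0.0115) with overlapping rats, and this call was lost without rat 356 (0.27, adjusted p = 0.233) or without the 10 ppm rat 330 (0.49, adjusted p = 0.0515). Cxcr3 was also not called in the fit of these 2 groups alone (adjusted p = 0.333) or with RNA integrity as a covariate (adjusted p = 0.0547). Its exact permutation p was 0.114.

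No gene of the 5 was called at 0.7, 2 or 6 ppm at 5 d, where 0%, 0.0281% and 8.83% of all genes were called in either direction. None had an unadjusted p under 0.05 in limma there. The exact permutation test of single genes gave 1 value under 0.05, Cxcl9 at 6 ppm, with signals of 4.67, 4.83, 4.56 and 4.60, just below the 0 ppm rats (difference -0.25, p = 0.0286, two-sided, the smallest p that 4 rats against 4 can give). Over the 44 arrays at 6 ppm or less at any time, Cxcl10 ran from 4.90 to 8.11 with a median of 5.91, and Cxcl11 from 4.84 to 8.42 with a median of 5.41. Single rats stood out among them. Rat 298 at 6 ppm for 5 d had Cxcl10 at 7.63 and Cxcl11 at 7.24, while its 3 group mates had Cxcl10 at 4.90, 5.42 and 5.90 and Cxcl11 at 5.40, 5.04 and 5.16.

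**Figure D2:**
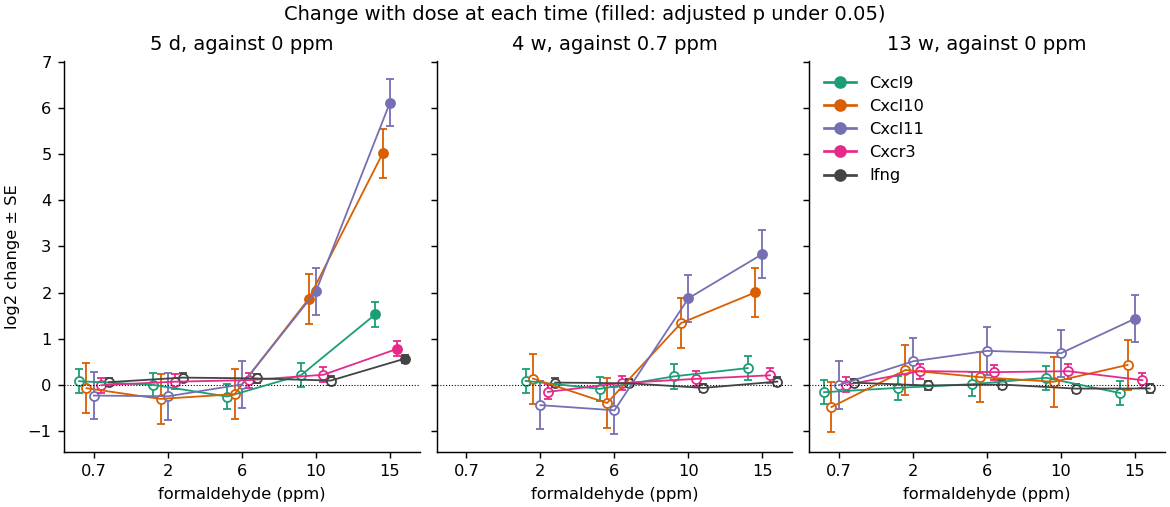
Log2 change of each gene (y axis, ± SE from limma) against formaldehyde dose in ppm at 5 d and 13 w against 0 ppm and at 4 w against 0.7 ppm. Filled points have an adjusted p under 0.05. Cxcl11 changed by 6.12 at 15 ppm for 5 d, 2.84 at 4 w and 1.44 at 13 w, and no point at 6 ppm or below is filled.

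At 4 w Cxcl10 and Cxcl11 were the only 2 of the 5 genes called higher at 15 ppm than at 0.7 ppm, where 21.3% of all genes were. Cxcl11 signals were 9.27, 7.65, 8.59 and 8.34 in rats 362, 365, 368 and 369, against 5.94, 5.69, 5.42 and 5.43 in the 0.7 ppm rats, a difference of 2.84 ± 0.51 (adjusted p = 1.0e-05). Cxcl10 signals were 8.67, 7.51, 8.64 and 7.60 in those rats, against 7.36, 5.58, 5.50 and 5.96 at 0.7 ppm, a difference of 2.00 ± 0.54 (adjusted p = 0.00229) or 4.01-fold. The groups did not overlap for either ligand, though the 0.7 ppm rat 242, with Cxcl10 at 7.36, came close to the exposed range. Cxcl9, Cxcr3 and Ifng differed by 0.37 ± 0.26, 0.21 ± 0.16 and 0.07 ± 0.09, and none was called.

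At 10 ppm for 4 w Cxcl11 alone was called higher than at 0.7 ppm, where 9.03% of all genes were. Its signals were 5.95, 8.20, 8.08 and 7.77 in rats 331, 333, 336 and 338, a difference of 1.88 ± 0.51 (adjusted p = 0.00759), with rat 331 only just above the highest 0.7 ppm rat. Cxcl10 signals were 6.22, 7.80, 7.70 and 8.05 in these rats, and its difference of 1.34 ± 0.54 was not called (adjusted p = 0.0875). Rat 331 was the low one for both ligands, and leaving it out brought Cxcl10 to 1.75 ± 0.57 (adjusted p = 0.0274), as did leaving out the 0.7 ppm rat 242 (1.76 ± 0.57, adjusted p = 0.0306). Between 15 and 10 ppm none of the 5 genes was called at 4 w or at 13 w, where 6.29% and 12.6% of all genes were, and none had an unadjusted p under 0.05 in limma or in the exact permutation test. At 2 and 6 ppm for 4 w none was called or had an unadjusted p under 0.05 in limma or in the exact permutation test, where 0.0211% and 3.28% of all genes were called.

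At 13 w only Cxcl11 of the 5 was called higher at 15 ppm than at 0 ppm, where 23.5% of all genes were. Its signals were 5.43, 7.68, 6.36 and 7.50 in rats 375, 377, 378 and 379, against 5.07, 5.63, 5.36 and 5.16 in the 0 ppm rats. The groups overlapped, since rat 375 lay within the unexposed range, and the difference was 1.44 ± 0.51 (adjusted p = 0.0184). It was not called without rat 377 (1.12, adjusted p = 0.096) or without rat 379 (1.18, adjusted p = 0.0811). RNA integrity was 8.90 ± 0.36 at 15 ppm and 7.57 ± 0.23 at 0 ppm (SD, n = 3 each), and with it as a covariate the difference was 1.09 and not called (adjusted p = 0.246). Cxcl10 signals were 6.09, 7.23, 6.03 and 7.09 at 15 ppm, against 5.17, 6.82, 6.52 and 6.20 at 0 ppm, a difference of 0.43 ± 0.54 that was not called. Cxcl9, Cxcr3 and Ifng differed by -0.18 ± 0.26, 0.10 ± 0.16 and -0.08 ± 0.09 at 13 w.

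At lower doses for 13 w no gene of the 5 was called, and none had an unadjusted p under 0.05 in limma or in the exact permutation test. The shares of all genes called there were 0% at 0.7 ppm, 0.00703% at 2 ppm, 12.2% at 6 ppm and 26.4% at 10 ppm. At 10 ppm rats 346 and 349 had Cxcl10 at 6.79 and 7.23 and Cxcl11 at 6.62 and 6.93, while rats 341 and 348 had Cxcl10 at 5.29 and 5.66 and Cxcl11 at 5.24 and 5.18. The same 2 rats were the higher ones for Cxcl9, at 5.42 and 5.55 against 4.72 and 4.71. At 6 ppm rat 316 had Cxcl10 at 8.11, Cxcl11 at 8.42 and Cxcl9 at 5.87, above its group mates, whose highest values were 5.84, 5.37 and 4.91. Its mean signal over 20 interferon-gamma response genes was 9.66, against 8.62 to 8.94 in the other 3 rats. Over 27 type I interferon and shared interferon-stimulated genes its mean was 8.29 against 8.02 to 8.15. Its mean was 6.22 against 5.92 to 6.02 for T and NK cell markers, and 7.70 against 7.31 to 7.53 for macrophage and dendritic cell markers. For neutrophil markers it was 6.64 against 6.30 to 6.68, and so not the highest. Its Ifng signal of 3.64 was the lowest of the 4, but the group ran only from 3.64 to 3.88. These Ifng values lie in the low part of the scale, where such an order of rats means little. At 2 ppm rats 286 and 287 had Cxcl10 at 7.45 and 7.79, and the other 2 rats had 5.45 and 5.32.

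Among 15 ppm rats all 5 genes were lower at 4 w than at 5 d, where 6.08% of all genes were called lower. Cxcl11 was 10.3-fold lower at 4 w than at 5 d (log2 difference -3.36 ± 0.51, adjusted p = 2.0e-06) and Cxcl10 8.40-fold lower (-3.07 ± 0.54, adjusted p = 3.4e-05). Cxcl9 differed by -1.27 ± 0.26, Cxcr3 by -0.62 ± 0.16 and Ifng by -0.39 ± 0.09, with overlapping rats for Cxcr3 and Ifng. The Cxcr3 and Ifng calls were lost without rat 356 (-0.33, adjusted p = 0.163, and -0.22, adjusted p = 0.0684), and Cxcl9 was then -0.73 (adjusted p = 0.0186). In a fit of these 2 groups alone Cxcl9, Cxcr3 and Ifng were not called (adjusted p = 0.219, 0.295 and 0.261). From 4 w to 13 w none of the 5 was called, where 1.39% of all genes were, although Cxcl10 (-1.5 ± 0.54, adjusted p = 0.162) and Cxcl11 (-1.72 ± 0.51, adjusted p = 0.0742) had unadjusted p under 0.05 in limma. Without the 13 w rat 377 the Cxcl11 difference was -2.03 and called (adjusted p = 0.0488). All 4 rats at 13 w had less Cxcl10 than all 4 at 4 w. At 0 ppm none of the 5 differed between 13 w and 5 d at an unadjusted p under 0.05, by limma or by exact permutation, where 2.24% of all genes were called.

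Between 13 w and 5 d at 15 ppm all 5 genes were again lower at the later time, where 13.1% of all genes were. Cxcl11 was 33.8-fold lower and Cxcl10 23.7-fold lower at 13 w. Ifng differed by -0.49 ± 0.09 and Cxcr3 by -0.80 ± 0.16, or by -0.32 and -0.51 without rat 356. In a fit of these 2 groups alone Ifng (adjusted p = 0.0908), Cxcr3 (adjusted p = 0.0901) and Cxcl9 (adjusted p = 0.0538) were not called, and the exact permutation p was 0.0571 for Ifng and for Cxcr3. The difference of the responses was tested directly, as 15 minus 0 ppm at 13 w less 15 minus 0 ppm at 5 d, and all 5 genes were called lower, against 6.09% of all genes. It was -4.68 ± 0.72 for Cxcl11 (adjusted p = 2.8e-06), -4.58 ± 0.76 for Cxcl10 (adjusted p = 1.2e-05), -1.70 ± 0.37 for Cxcl9 (adjusted p = 7.1e-04), -0.65 ± 0.13 for Ifng (adjusted p = 1.8e-04) and -0.68 ± 0.23 for Cxcr3 (adjusted p = 0.0339). In a fit of these 4 groups alone Cxcl9 (adjusted p = 0.0577) and Cxcr3 (adjusted p = 0.251) were not called. The Cxcr3 value was also not called in 9 of 16 fits that each left out 1 rat, and was -0.39 (adjusted p = 0.181) without rat 356.

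The response above 0.7 ppm was smaller at 4 w than at 5 d for Cxcl11 (-3.51 ± 0.72, adjusted p = 0.00158), Cxcl10 (-3.08 ± 0.76, adjusted p = 0.0113) and Ifng (-0.44 ± 0.13, adjusted p = 0.0391), 3 of the 5 genes, against 1.86% of all genes. The Ifng value was not called in 10 of 16 fits that each left out 1 rat, with adjusted p from 0.00471 to 0.16, and was -0.27 without rat 356. In a fit of these 4 groups alone it was not called either (adjusted p = 0.281). Cxcl9 (-1.08 ± 0.37) and Cxcr3 (-0.58 ± 0.23) were not called with all rats, but both were without rat 358 (-1.38 and -0.80), and Cxcl9 also was without rat 359 (-1.31). Over all 16 such fits Cxcl9 ran from -1.38 to -0.54 and Cxcr3 from -0.80 to -0.29, with adjusted p up to 0.345 and 0.476. The other 2 differences of responses gave no call among the 5 genes. The 10 minus 0 ppm response at 13 w against 5 d had 1 unadjusted p under 0.05, that of Cxcl10 (-1.79 ± 0.76), beside 0.00703% of all genes called. The 15 minus 0.7 ppm response at 13 w against 4 w had none, beside 0.0633%.

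Ordered by group mean, 15 ppm for 5 d came first of the 17 groups for every one of the 5 genes. For Cxcl10 and Cxcl11 the next places were 15 ppm for 4 w (means 8.11 and 8.46), 10 ppm for 5 d (8.02 and 7.73) and 10 ppm for 4 w (7.44 and 7.50), and rats of these neighbouring groups overlapped. Of the 16 neighbouring pairs in each order, only the step from first to second place was free of overlap for Cxcl9, Cxcl10, Cxcl11 and Ifng, and for Cxcr3 no step was. These steps compare neighbours only, and groups further down overlapped the first for Cxcl9 and Ifng. Cxcl9 reached 5.87 at 6 ppm for 13 w, above the lowest rat at 15 ppm for 5 d (5.56). Ifng reached 3.94 at 2 ppm for 4 w, above the lowest rat at 15 ppm for 5 d (3.89). The share of such steps over all genes is not given here. The 11 groups at 6 ppm or less had Cxcr3 means of 6.39 to 6.77 and Ifng means of 3.62 to 3.83, and Cxcl9 means of 4.67 to 5.00.

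Across the 68 arrays Cxcl10 and Cxcl11 correlated most closely of the 10 pairs, at r = 0.95, and each was the gene most like the other among all genes on the array. Cxcl9 correlated with Cxcl10 and with Cxcr3 at r = 0.77 each, and Ifng with Cxcl9 at r = 0.68. These values describe arrays that share doses and times, and among them are the 4 arrays of 15 ppm for 5 d, whose mean was the highest of all groups for each gene. After Cxcl11, the genes most like Cxcl10 were Bcl2a1, an NF-kB target that delays cell death (r = 0.93), Ms4a6a, Lsp1, a leukocyte cytoskeletal protein, and Slfn2. For Cxcl11 they were Cxcl10, Bcl2a1 (r = 0.94), Ms4a6a, the phosphatase Dusp2 and Slfn2. The genes most like Cxcl9 were Cmtm7 (r = 0.85), the cytotoxic granule genes Nkg7 and Gzmm, the cytokine receptor chain Il2rg and Coro1a. Those most like Ifng were the NK receptor Klrb1a (r = 0.77), Prb3, the NK receptor Klre1, Cd8a and Prpmp5. Cxcr3 was most like Cxcl9, followed by Rnase6, the transcription factor Irf8, Mnda and the granzyme Gzmk. Over the 17 group means instead of the arrays, much of this changed. The genes most like Cxcl9 were then Milr1, Gzmk, Hcls1, Myo1g and Fmnl1. Of the genes named above for Ifng only Klrb1a stayed, and for Cxcr3 only Rnase6. For Cxcl10 and Cxcl11 the other ligand, Bcl2a1 and Ms4a6a stayed.

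**Figure D3:**
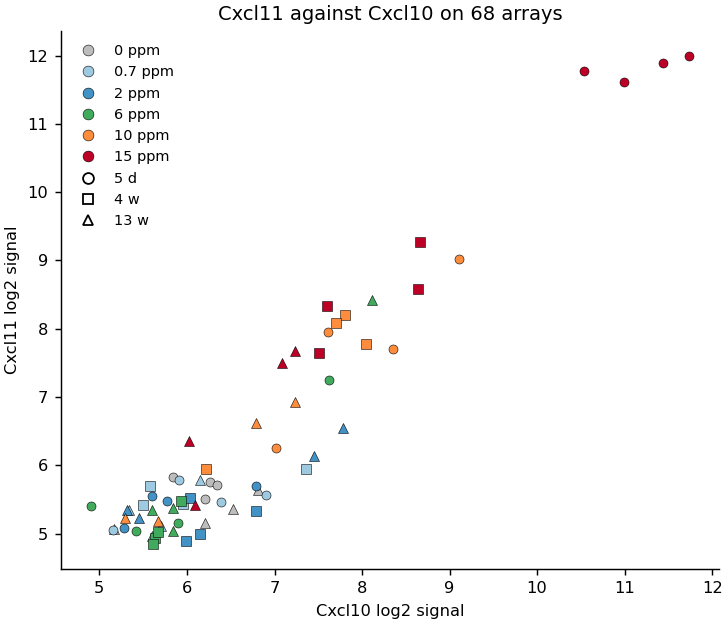
Log2 signal of Cxcl11 (y axis) against that of Cxcl10 (x axis) on 68 arrays, coloured by dose in ppm and shaped by time. The 4 rats at 15 ppm for 5 d lie apart at the upper right, and rats of the other groups lie along the diagonal below them.

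Inside the 15 ppm group at 5 d the 5 genes did not rank the rats alike. Rat 356 was highest for Cxcl9, Cxcr3 and Ifng, and rat 354 was highest for Cxcl10 and Cxcl11. The mean signal of 24 T and NK cell markers was 7.13, 7.71, 6.55 and 6.91 in rats 354, 356, 358 and 359, against 6.04, 5.94, 5.84 and 6.09 at 0 ppm, so its order over the exposed rats was that of Cxcl9, Cxcr3 and Ifng. The macrophage and dendritic cell list (8.98, 9.11, 8.31 and 8.61 in the same rats) and both interferon response lists ranked the 4 rats in that order too, and the neutrophil list did not. In the type I interferon list rats 356 and 354 were nearly equal, at 9.870 and 9.863. The order of Cxcl10 differed from the order of Cxcl9 only in these 2 rats. Cxcl11 ran only from 11.61 to 12.00 over the same rats. At 10 ppm for 5 d rat 329, the highest for both Cxcl10 and Cxcl11, was highest for all 5 of these list means. Its T and NK marker mean was 6.50 against 5.94 to 5.97 in the other 3, and its macrophage and dendritic mean 8.30 against 7.71 to 7.88. Its neutrophil mean was 7.28 against 6.51 to 7.04. The interferon-gamma response mean was 9.62 against 8.87 to 9.06, and the type I interferon mean 9.38 against 8.40 to 8.57. Whether the number of any of these cells accounts for any of these levels was not tested.

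**Figure D4:**
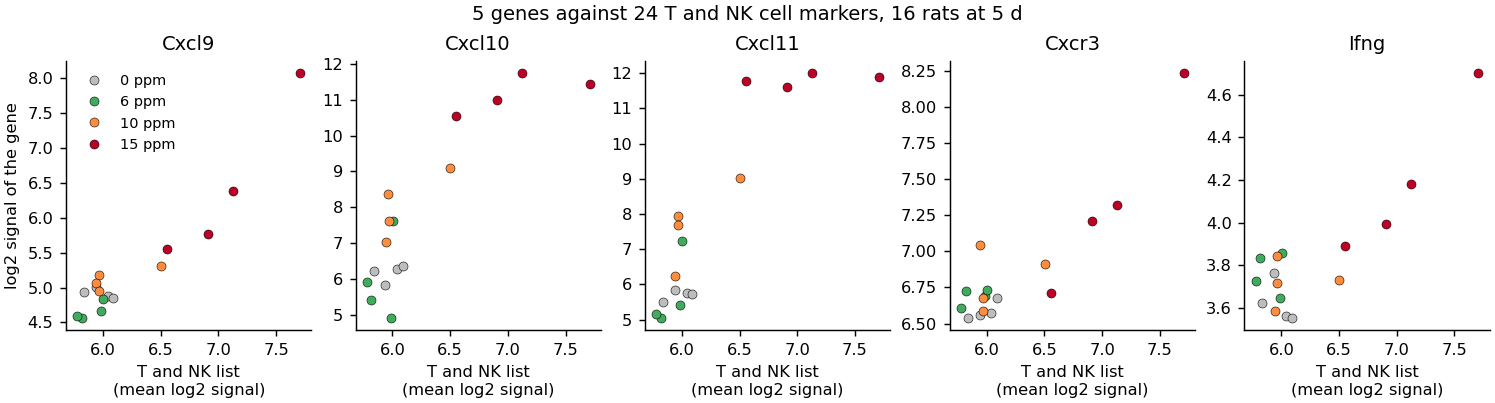
Log2 signal of each gene (y axes, own scale) against the mean log2 signal of 24 T and NK cell markers (x axis) in 16 rats at 0, 6, 10 and 15 ppm for 5 d. Cxcl9, Cxcr3 and Ifng are highest where the marker mean is highest, at 7.71, while Cxcl11 lies between 11.61 and 12.00 in all 4 rats at 15 ppm.

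The lists of pathway genes and cell markers give the setting of these 5 genes at 15 ppm against 0 ppm for 5 d, and the share of all genes called was 18.3% higher and 19.5% lower. Of 8 genes that drive Ifng expression, 5 were called higher and none lower. Among them Ebi3, a subunit of IL-27 and IL-35, differed by 1.94 ± 0.21, Il15 by 1.13 ± 0.26, the receptor chain Il2rb by 1.12 ± 0.20 and Il18 by 0.53 ± 0.18, or 0.42 and not called without rat 356 (adjusted p = 0.0894). The IL-12 subunit genes Il12a and Il12b, whose product drives interferon-gamma in T and NK cells, differed by -0.02 ± 0.10 and -0.06 ± 0.10 at low signal and were not called. Of the 9 genes for the interferon-gamma receptor and its signalling, 3 were called higher, the transcription factors Irf1 (0.75 ± 0.18) and Irf8 (0.84 ± 0.17) and, only with rat 354 included, the feedback inhibitor Socs3 (0.52 ± 0.18), and the kinase gene Jak1 was called lower (-0.28 ± 0.05). The receptor genes Ifngr1 (-0.13 ± 0.14) and Ifngr2 (-0.03 ± 0.15) were not called at 5 d. At 13 w both were called lower at 15 ppm than at 0 ppm, Ifngr1 by -0.59 and Ifngr2 by -0.65, with no overlap between rats. At 4 w Ifngr1 differed by -0.36 and Ifngr2 by -0.37 from 0.7 ppm, but without the 0.7 ppm rat 242 these were -0.22 and -0.19 and not called (adjusted p = 0.269 and 0.358).

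Of 20 other interferon-gamma response genes, 11 were called higher at 15 ppm for 5 d and none lower, with a median log2 change of 0.59 against -0.01 over all genes, or 0.36 without rat 356. Fcgr1a, a high-affinity Fc receptor, differed by 2.80 ± 0.17, the guanylate-binding protein gene Gbp2 by 2.26 ± 0.36, the adhesion molecule Icam1 by 1.47 ± 0.16 and the peptide transporter Tap1 by 1.26 ± 0.23. Ciita, the class II MHC transactivator, differed by 0.31 ± 0.22 and was not called. Of 27 type I interferon and shared interferon-stimulated genes, 21 were called higher and none lower, with a median of 1.14. Isg15, a ubiquitin-like antiviral protein, was 8.90-fold higher, Rsad2 6.38-fold and Oasl 5.03-fold, while Ifnb1, the gene of interferon-beta itself, differed by -0.03 ± 0.10 at low signal and was not called.

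Of 4 genes for proteins that bind, scavenge or cleave these ligands or share their receptor, Ackr3, a scavenger receptor for CXCL11, was called lower at 15 ppm for 5 d (-0.76 ± 0.12, adjusted p = 8.2e-07) and Pf4 was called higher (0.60 ± 0.21, adjusted p = 0.019). The Pf4 call was lost without rat 356 (0.49, adjusted p = 0.0938) or without rat 354, 207 or 208. Ackr3 signal averaged 11.08 at 15 ppm and 11.84 at 0 ppm, with no overlap between rats. It was also called lower at 10 ppm for 5 d (-0.47 ± 0.12, adjusted p = 0.0041), and at 15 ppm for 4 w (-0.39 ± 0.12) and 13 w (-0.60 ± 0.12). Dpp4, the protease that trims the ligands, was not called at 5 d. Ackr1 (0.64 ± 0.34) was not called with all rats, and its difference rested on rat 356. Its signals were 6.19, 9.29, 6.08 and 5.88 in rats 354, 356, 358 and 359, against 6.22, 6.55, 5.96 and 6.14 at 0 ppm. Ackr1 was called only without rat 358 (0.91) or rat 359 (0.97), fits that keep rat 356. Other CXC chemokine and receptor genes were called higher in 7 and lower in 1 of 13, among them the neutrophil-directed Ppbp (3.78 ± 0.20), Cxcl3 (2.08 ± 0.12) and receptor Cxcr2 (1.96 ± 0.17). Of 11 TNF and NF-kB genes 7 were called higher and none lower, including Birc3 (1.55 ± 0.19) and Nfkb2 (0.92 ± 0.15).

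Of 24 T and NK cell markers 17 were called higher and none lower, with Gzmb (3.12 ± 0.24), the T and NK chemokine Xcl1 (2.62 ± 0.25) and Cd8a (2.11 ± 0.20) among them. Cd3e, the T cell receptor component, was called with overlapping rats (0.54 ± 0.21), but not without rat 356 (0.23, adjusted p = 0.416) or without the 0 ppm rat 207, 208 or 210. All 10 neutrophil markers and 7 of 15 macrophage and dendritic cell markers were called higher, and of 5 B and plasma cell, 7 endothelial, 8 fibroblast and 6 olfactory neuron markers none was called. Of 12 epithelial markers 5 were called higher, among them the basal keratin genes Krt14 (1.05 ± 0.10) and Krt5 (0.71 ± 0.15), and 3 lower, among them Epcam (-0.28 ± 0.05) and Tp63 (-0.46 ± 0.10). The mean of the neutrophil list was 8.68 to 8.89 at 15 ppm and 6.31 to 7.16 at 0 ppm, and that of the macrophage and dendritic list 8.31 to 9.11 at 15 ppm and 7.70 to 8.14 at 0 ppm. Without rat 356 the calls higher were 13 of 24 T and NK markers, 8 of 20 interferon-gamma response genes and 19 of 27 type I genes, with 14.8% of all genes called higher. The part of these cell types in the ligand signals was not tested.

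**Figure D5:**
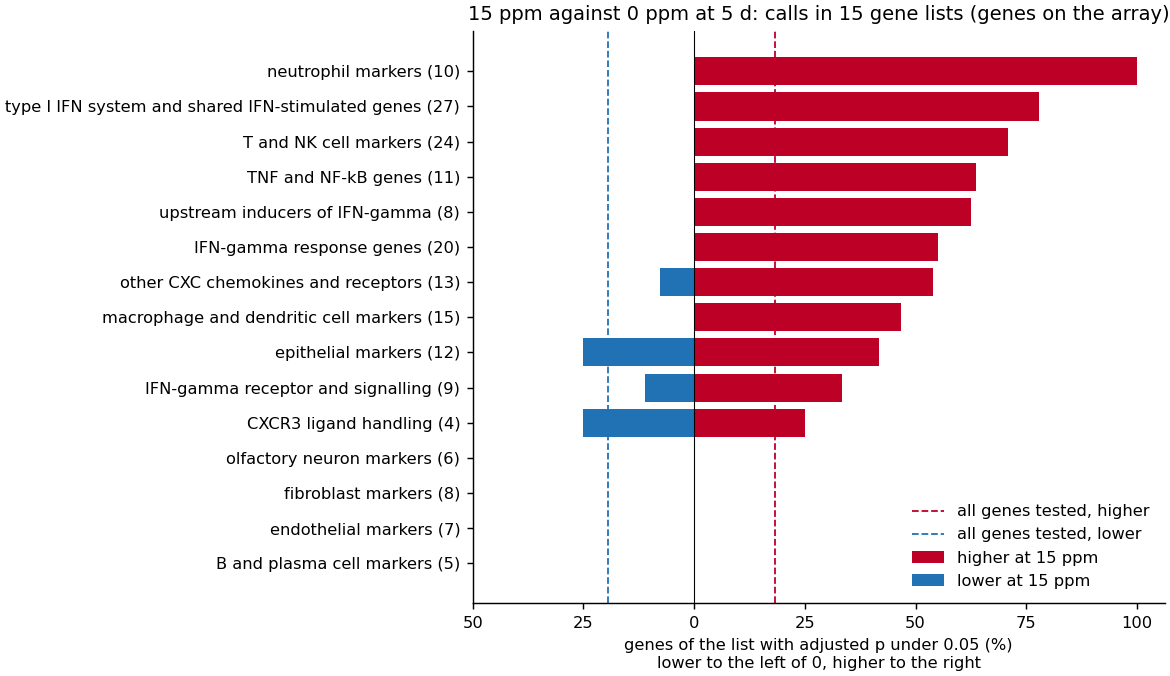
Share of the genes of each list (rows, number on the array in brackets) with an adjusted p under 0.05 at 15 ppm against 0 ppm for 5 d, with higher genes to the right and lower genes to the left of 0. Dashed lines mark the shares over all 14217 genes, 18.3% higher and 19.5% lower. The neutrophil list has all of its 10 genes higher, and 11 of 20 interferon-gamma response genes are higher.

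Fewer genes of the interferon-gamma response, type I interferon and T and NK lists were called higher at 15 ppm at the later times. At 15 ppm against 0.7 ppm for 4 w, 3 of 20 interferon-gamma response genes were called higher and 1 lower, and of the 27 type I genes 12 were higher and 2 lower, where 21.3% of all genes were higher and 16.1% lower. At 15 ppm against 0 ppm for 13 w the counts were 1 higher and 4 lower of 20 and 3 higher and 6 lower of 27, where 23.5% of all genes were higher and 20.6% lower. Leaving out any 1 rat at 13 w gave 0 to 2 higher and 2 to 4 lower of the 20, with 2 lower without rat 226, 229, 378 or 379, and 1 to 3 higher of the 27, with 1 without rat 225 or 379. Of the 24 T and NK markers 6 were higher and 1 lower at 4 w, and none was higher and 8 were lower at 13 w. Without rat 362 the 4 w count was 1 higher, and 3 without rat 250, 368 or 369, and at 13 w the lower count was 3 without rat 226, 4 without rat 378 and 5 without rat 230 or 375. Their mean signal was 5.90 to 6.35 at 15 ppm and 5.87 to 6.06 at 0.7 ppm for 4 w, and 5.69 to 5.94 at 15 ppm and 6.03 to 6.25 at 0 ppm for 13 w. Gbp2 differed by 1.22 ± 0.36 at 4 w and was not called at 13 w (0.63 ± 0.36). The 15 ppm responses at 13 w and 5 d were also compared directly, where 6.09% of all genes were called lower. Of the 20 interferon-gamma response genes 12, of the 27 type I genes 22 and of the 24 T and NK markers 19 were called lower and none higher. Leaving out any 1 rat gave 8 to 13 lower of the 20, 19 to 24 of the 27 and 16 to 19 of the 24.

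RNA quality measures differed between the groups at 5 d. RNA integrity was 8.33 ± 0.33 at 15 ppm and 7.68 ± 0.29 at 0 ppm for 5 d (SD, n = 4 each), and the difference between the 3' and 5' beta-actin control probe sets was 2.47 ± 0.08 and 1.71 ± 0.20 in these groups. With either measure as a covariate, all 5 genes were still called higher at 15 ppm for 5 d.

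The genes next to the ligand cluster were chosen after the ligand values were seen, and 5 of them were measured. At 15 ppm against 0 ppm for 5 d, Sdad1 differed by 0.85 ± 0.13, Scarb2 by 0.67 ± 0.11 and Nup54 by 0.57 ± 0.09. These 3 were called higher, where 18.3% of all genes were. Art3, which spans Cxcl11 and Cxcl10, differed by 0.09 ± 0.17 and Naaa by -0.11 ± 0.08, and neither was called. For 13 w against 0 ppm Sdad1, Scarb2 and Nup54 were called higher by 0.69, 0.95 and 0.76, where 23.5% of all genes were. For 4 w against 0.7 ppm they were called higher by 0.39, 0.67 and 0.67, where 21.3% were. The Sdad1 call at 4 w was lost without rat 243 (0.32, adjusted p = 0.0643). Art3 and Naaa were not called at either time with all rats. At 13 w Art3 was called lower without rat 229 (-0.56) and Naaa higher without rat 226 (0.20).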

How the data were processed

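RNA of 68 rats was hybridised to 1 Rat230_2 array each. Deposited log2 signals, made with RMA after GCOS 1.0 per the submitters' processing notes, were used unchanged. Of 31099 probe sets, 20826 named 1 gene in the platform annotation, and each of 14217 genes was taken at its probe set of highest mean. Groups follow the titles; for 19 of 20 samples of 4 w the treatment field says 5 days, and where labels say 5 d the series text says 1 week. limma 3.58.1 (R 4.3.3) fitted 1 mean per group over all arrays, with 51 residual degrees of freedom, checked on simulated data. p-values were adjusted over all genes within each contrast. Each rat has its own number, so nothing pairs samples, and no batch is labelled. With 4 arrays a group, their number limits the precision. Other genes were named as fixed pathway genes, as up to 4 called genes of smallest adjusted p per list, or as the 5 genes most like each member. The 5 genes and the lists were chosen with earlier results of these data known. The alternatives tried were another scaling, probe set rule, low-signal filter, variance model, weights, covariates, reference, adjustment, exact permutation and leaving out each rat.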

Additional observations from a re-analysis of the deposited data

Results flagged for a closer look

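In 85 groups of 4 rats, 1 for each gene, dose and time, 5 groups held a rat whose signal lay far from its 3 group mates, each time the highest, and such a mark falls on about 1 in 20 groups by chance. Rat 316 at 6 ppm for 13 w had Cxcl10 at 8.11, where its group mates reached 5.84, and Cxcl11 at 8.42, where they reached 5.37. Rat 298 at 6 ppm for 5 d had Cxcl11 at 7.24, where its group mates reached 5.40. Cxcr3 was 7.02 in rat 362 at 15 ppm for 4 w, where its group mates reached 6.67, and 7.03 in rat 286 at 2 ppm for 13 w, where they reached 6.72.

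The responses to formaldehyde also differed between times by limma's interaction test. The response to 15 ppm above 0 ppm was lower at 13 w than at 5 d by log2 differences of -4.68 for Cxcl11, -4.58 for Cxcl10, -1.70 for Cxcl9, -0.68 for Cxcr3 and -0.65 for Ifng. The response to 15 ppm above 0.7 ppm was lower at 4 w than at 5 d by -3.51 for Cxcl11, -3.08 for Cxcl10 and -0.44 for Ifng. Of all genes, 6.09% were called lower in the 13 w comparison and 1.86% in the 4 w comparison. Leaving out 1 rat lost the Cxcr3 call at 13 w in 9 of 16 fits and the Ifng call at 4 w in 10 of 16. In limma fits of only the groups compared, Cxcl9 (adjusted p = 0.0577) and Cxcr3 (adjusted p = 0.251) were not called at 13 w. Ifng was not called in such a fit at 4 w (adjusted p = 0.281).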

How the results depend on the processing

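Over 125 pairs of a gene and a comparison, 34 were called, and of 2915 values under other settings 58 lost a call, 11 gained one and 0 called values changed sign. Of 2093 values called under neither setting, 111 changed sign. At 15 ppm against 0 ppm for 5 d, Cxcl10 and Cxcl11 kept their calls under every setting run. Cxcl9 kept its call too, but it passed the low-signal filter only through that 15 ppm group, so that setting is no check on it. Cxcr3 and Ifng had 1 exception each. In a fit of only the groups compared, Cxcr3 was 0.78 (adjusted p = 0.0601), and under a minimum change of 1.5-fold Ifng, at 0.57, was not called. Low-signal filtering left 11748 genes and dropped Ifng.

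In the fit of only the groups compared, the difference of the 15 ppm responses at 13 w and 5 d was -1.70 for Cxcl9 (adjusted p = 0.0577) and -0.68 for Cxcr3 (adjusted p = 0.251), neither called, which left 3 genes. That fit called 2 of the 5 genes at 15 against 10 ppm for 5 d, 2 at 15 ppm for 4 w against 5 d and 2 for 13 w against 5 d. For Cxcl11 at 15 against 0 ppm for 13 w, the value with RNA integrity as a covariate was 1.09 (adjusted p = 0.246). It was 1.23 (adjusted p = 0.102) over only the arrays with an integrity number, a setting chosen after seeing the data. It stayed at 1.44 with adjustment over all contrasts (adjusted p = 0.0591) and in the exact permutation test (p = 0.0571), and 0 genes were called under each of these 4 settings. The Cxcr3 difference of responses was -0.51 with the covariate (adjusted p = 0.219) and -0.55 over the arrays with a number (adjusted p = 0.157). Adjustment over all contrasts called 1 gene at 15 ppm for 13 w against 4 w, and the 1.5-fold minimum called 3 at 15 against 10 ppm for 5 d. The exact permutation test, unadjusted, called 1 gene at 6 ppm for 5 d, 3 at 15 ppm for 4 w against 5 d, 1 for 13 w against 4 w and 3 for 13 w against 5 d. The shares of all genes called under these other settings are not given here, and the fits of only the groups compared rest on fewer arrays. Whether calls moved for genes at large therefore cannot be read from these counts. The cause of these changes was not tested.

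Leaving out 1 rat at a time moved Cxcl11 at 15 against 0 ppm for 13 w between 1.12 and 1.87 and the Cxcr3 difference of responses between -0.90 and -0.39. The number of genes called ran from 1 to 2 at 10 against 0.7 ppm for 4 w, from 1 to 2 at 10 against 0 ppm for 5 d, from 0 to 1 at 15 against 0 ppm for 13 w, from 0 to 1 at 15 ppm for 13 w against 4 w, from 3 to 5 for 4 w against 5 d, and from 2 to 5 for the difference of the responses above 0.7 ppm at 4 w and 5 d. No paired analysis was possible because each rat has its own number. Ifng, Cxcl9 and Cxcl11 lay at low signal in unexposed rats, which limits what their differences measure.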
